A study of Mus musculus with 14 samples.

Results

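Sorted stem cells of mouse stomach organoids were compared with whole stomach organoids that had been moved to a differentiating medium. The comparison used 4 of the 14 arrays of the series, chosen by sample title: Control Sto SCs (n = 2) and Sto organoids SI med (n = 2). Both groups carried 1 deleted and 1 floxed allele of Cdx2, the homeobox gene of the intestinal epithelium, together with an EGFP and CreERT2 cassette knocked into the Lgr5 locus (Cdx2-/fl / Lgr5-EGFP). Neither had been treated with 4-hydroxytamoxifen, so the floxed allele was intact. The mice had a mixed C57Bl6j/CBA background, were of both sexes and were 3 to 10 months old. Control Sto SCs were the cells with high Lgr5-driven EGFP that had been sorted from dissociated clonal organoids kept in Sto medium, which holds EGF, Noggin, R-spondin, Wnt, Fgf10 and gastrin. Sto organoids SI med were unsorted whole organoids kept in SI medium, which lacks the Wnt, Fgf10 and gastrin supplements. Sorting and medium therefore changed together. The labels give the Cdx2-/fl genotype for the whole organoids as well, whereas the study's text speaks of organoids from wild-type glands. In that text the sorted cells came from organoids grown from single stem cells. The origin of the culture may therefore have changed along with sorting and medium. A single array of unsorted stomach organoids in Sto medium (Sto organoids Sto med) had the medium of the sorted cells, and it is given beside the results as a description. Nothing states that each array came from an animal of its own, so p-values measure the spread between these samples.

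A pyloric gland renews itself from Lgr5-positive cells at its base, whose state depends on Wnt signalling. Their daughters divide, move toward the surface and mature into pit cells, which secrete the mucin Muc5ac and the gastrokines, while gland mucous cells secrete Muc6 and hormone-producing cells arise in smaller numbers. In organoid culture, Wnt and R-spondin hold the stem cell state and their withdrawal lets the epithelium mature.

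Between the groups 1135 of 18820 genes were called (6.03%), of which 703 were higher (3.74%) and 432 lower (2.3%) in Control Sto SCs. At an unadjusted p under 0.05 there were 3722 (19.8%). A call needed an adjusted p under 0.05 in limma's fit over all arrays, with Benjamini-Hochberg adjustment over all genes, and a difference of at least 1 on the log2 scale (2-fold). Values are RMA signals on the log2 scale, and every signed difference is Control Sto SCs minus Sto organoids SI med. The higher side held the stem cell receptor Lgr5, Wnt feedback genes and nearly all genes of mitosis. The lower side held genes of pit cells, which are 4 of the 10 largest falls. The array medians over all probe sets lay between 4.80 and 5.05 in the 4 arrays, and a fold against a group under those values may be compressed. The 2 arrays of a group differed by a median of 0.18 (SCs) and 0.17 (organoids) per gene, and the arrays of the groups did not overlap in 56.9% of all genes. The library labelled SI organoids SI med 1 entered the shared estimate of the spread although it goes against its label, with Cdx2 at 5.52 (9.92 and 9.67 in SI organoids 2 and 3), Cldn18 at 12.23 (5.42 and 3.94) and Sox2 at 9.21 (3.69 and 3.85). Without it 1738 genes were called, which included all 1135. Leaving out Sto organoids 1 or 2 gave 403 or 628 genes and leaving out Control Sto SCs 1 or 2 gave 525 or 443. Centring the arrays on their medians shifted the median of all genes from -0.01 to 0.13 and moved the share of higher genes from 61.9% to 72.9%.

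**Figure D1:**
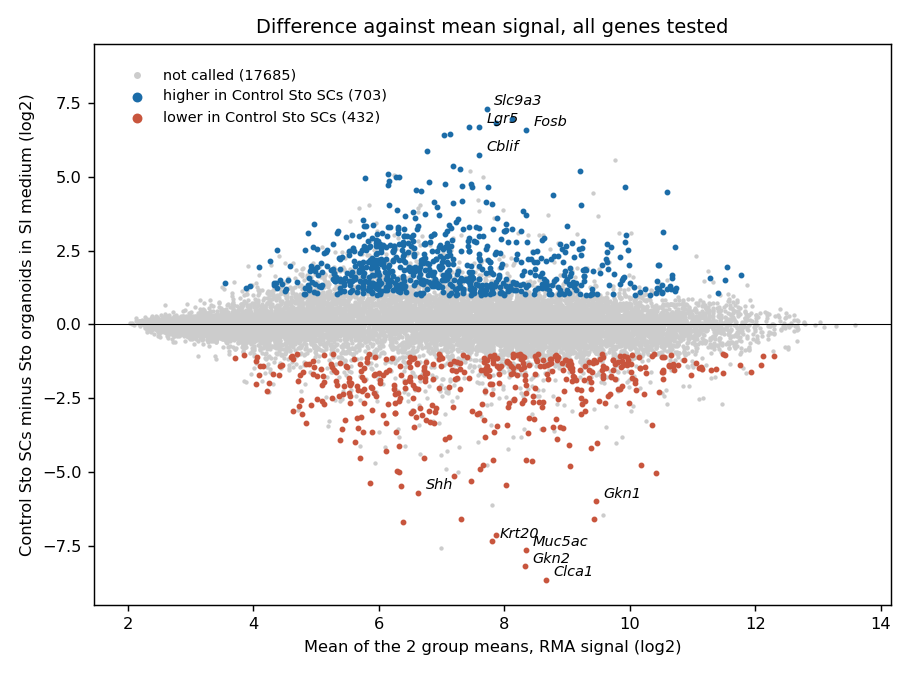
Difference between Control Sto SCs and Sto organoids in SI medium (log2, y axis) against the mean of the group means (log2, x axis), 1 point per gene, with called genes in blue (703 higher in SCs) and red (432 lower). Slc9a3, Lgr5 and Fosb stand at the upper edge and Clca1, Gkn2 and Muc5ac at the lower edge.

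The 4 measured genes of the miR-200 family of microRNAs were all lower in Control Sto SCs. They were among 8 of 307 microRNA genes called (2.61% lower, near the 2.3% of all genes, and 0% higher), so the count says nothing particular of microRNA genes. These small RNAs are known for keeping epithelial cells epithelial. They were singled out after their values were seen. The family lies in a pair of clusters, on chromosome 4 (Mir200a at chr4:156054911-156054932 and Mir200b at chr4:156055685-156055706) and on chromosome 6 (Mir141 at chr6:124717917-124717938 and Mir200c at chr6:124718324-124718346), all on the minus strand in RefSeq's GRCm38.p6. The mature sequences from RefSeq are shown because the 4 genes split into pairs by seed, and each pair has 1 member in each cluster. The seed (bases 2 to 8) is in capitals.
miR-200a-3p: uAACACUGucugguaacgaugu
miR-141-3p: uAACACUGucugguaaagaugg
miR-200b-3p: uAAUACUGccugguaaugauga
miR-200c-3p: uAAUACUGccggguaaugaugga

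With the seed AACACUG, Mir200a was at 5.39 and 5.27 in Control Sto SCs against 8.27 and 8.28 in the organoids (-2.95, SE 0.25, limma adjusted p = 0.000371), and Mir141 was at 3.22 and 3.46 against 6.07 and 6.15 (-2.77, SE 0.24, adjusted p = 0.000412). With the seed AAUACUG, Mir200b was at 7.52 and 6.39 against 9.58 and 9.64 (-2.65, SE 0.40, adjusted p = 0.0052), and Mir200c at 4.22 and 4.08 against 6.44 and 6.74 (-2.44, SE 0.34, adjusted p = 0.00348). The groups did not overlap in any of these genes, as in 56.9% of all genes, and both clusters and both seeds were lower in the SCs. In the Sto organoids Sto med array they stood at 5.76, 4.26, 7.20 and 5.07 in the same order, near the sorted cells. The array's probes report RNA from these loci and not the mature microRNA. The other called microRNA genes were Mir680-1 (-2.09), Mir31 (-1.41), Mir362 (-1.09) and Mir106b (-1.07).

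Among genes of cell division the difference was close to complete. Of 25 measured mitosis genes, 24 were higher in Control Sto SCs and 0 lower, against 3.74% of all genes higher, and the median difference was 2.70 beside -0.01 for all genes. Kif23, a kinesin of cytokinesis, was the exception (0.89, SE 0.40, adjusted p = 0.266). The spindle checkpoint kinase Bub1 was at 8.75 and 8.86 in the SCs against 4.31 and 5.93 in the organoids (3.69, SE 0.46, adjusted p = 0.00228). Top2a, the topoisomerase that untangles chromosomes, was at 9.59 and 9.90 against 6.22 and 6.83 (3.22, SE 0.30, adjusted p = 0.000589). The motor Kif11, which separates spindle poles, was at 8.92 and 8.99 against 5.69 and 6.64 (2.79, SE 0.31, adjusted p = 0.00122). The SC arrays were always above both organoid arrays for these genes, and organoid array 2 was above organoid array 1. Across the list that gap between the organoid arrays was over 1 in 8 of 25 genes, while the SC arrays differed by over 1 in 0. The cyclin Ccna2 (10.50 and 10.43 against 7.15 and 8.25) and the mitotic kinase Cdk1 (10.25 and 10.25 against 7.58 and 8.36) were called as well, with differences of 2.76 and 2.28. The count was 24 without the library labelled SI organoids SI med 1. It was 15 without Sto organoids 1 or without Control Sto SCs 2, 22 without Sto organoids 2 and 19 without Control Sto SCs 1.

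Promoters of mitotic genes are known for the pairing of CCAAT boxes with a cell cycle homology element, and 3 are printed because their genes are named above. They are the 250 bases before the first RefSeq start of each gene, from GRCm38.p6, and capitals mark the letters CCAAT and TTTGAA or their reverse complements ATTGG and TTCAAA. The windows are chr10:69352913-69353162 (Cdk1, minus strand), chr11:99024190-99024439 (Top2a, minus strand) and chr19:37376132-37376381 (Kif11, plus strand).
Cdk1: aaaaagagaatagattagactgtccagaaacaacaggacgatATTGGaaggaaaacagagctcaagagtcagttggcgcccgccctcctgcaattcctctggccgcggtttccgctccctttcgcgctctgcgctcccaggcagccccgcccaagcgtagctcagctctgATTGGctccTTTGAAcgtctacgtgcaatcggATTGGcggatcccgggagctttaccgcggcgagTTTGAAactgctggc
Top2a: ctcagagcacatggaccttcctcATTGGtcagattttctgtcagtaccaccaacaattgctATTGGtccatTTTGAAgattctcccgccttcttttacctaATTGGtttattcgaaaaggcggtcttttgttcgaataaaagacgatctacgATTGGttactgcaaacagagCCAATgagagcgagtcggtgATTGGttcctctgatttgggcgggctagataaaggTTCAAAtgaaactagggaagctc
Kif11: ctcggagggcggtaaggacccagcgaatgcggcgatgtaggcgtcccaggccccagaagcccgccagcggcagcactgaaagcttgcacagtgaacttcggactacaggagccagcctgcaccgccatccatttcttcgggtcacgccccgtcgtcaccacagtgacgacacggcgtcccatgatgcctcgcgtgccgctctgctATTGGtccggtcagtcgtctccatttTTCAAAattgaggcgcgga

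Of the 25 mitosis genes, 22 had a listed promoter. CCAAT stood on either strand in 18 of these (81.8%), against 5265 of 14749 promoters of all tested genes (35.7%). TTTGAA stood in 8 (36.4%), against 13.7% of all, and both in 7 (31.8%), against 5.04%. A match is a description of letters and not of a bound site.

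DNA replication genes moved the same way. Of 26 measured, 18 were higher (69.2%, against 3.74% of all genes) and 0 lower, with a median of 1.62. Uhrf1, which carries DNA methylation through replication, was at 8.20 and 8.61 in the SCs against 5.07 and 5.61 (3.07, SE 0.35, adjusted p = 0.00127). Pola1, the catalytic subunit of the primase-bound polymerase, was at 7.21 and 7.10 against 4.36 and 4.73 (2.61, SE 0.16, adjusted p = 8.11e-05). The helicase subunits Mcm2 (2.24) and Mcm6 (2.10) were also higher, whereas the thymidine kinase Tk1 was not called (0.12, SE 0.27, adjusted p = 0.906). The groups of Uhrf1 and Pola1 did not overlap, as in 56.9% of all genes. The count was 9 without Sto organoids 1 and 9 without Control Sto SCs 2, and 15 and 14 without the other array of each group. Of 25 ribosome biogenesis genes 5 were higher (20%, against 3.74% of all genes) and 0 lower, among them the nucleolar protein Ncl (1.09) and Mybbp1a (1.46), with a median of 0.58. That count was between 1 and 3 when any 1 of the 4 arrays was left out.

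Of 14 cell cycle inhibitors, 4 were higher in Control Sto SCs and 0 lower, against 3.74% of all genes higher, namely Cdkn1c (2.19), Cdkn2c (1.62), Gadd45a (1.56) and Cdkn2d (1.14). The p53 target Cdkn1a, at 11.50 and 11.09 in the SCs and 11.93 and 11.88 in the organoids, was not called (-0.61, SE 0.41, adjusted p = 0.503). No inhibitor was called when any 1 of the 4 arrays was left out, and 3 were lower beside the 4 higher on 11 arrays or with a replicate block.

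The stem cell and Wnt feedback list had 10 of 27 genes higher (37%, against 3.74% of all genes) and 0 lower, with a median of 0.94. Lgr5, the R-spondin receptor whose locus drives the sorted EGFP, was at 10.77 and 11.14 in Control Sto SCs and at 4.20 and 4.32 in the organoids (probe set 10372503, 104-fold, 6.70, SE 0.32, adjusted p = 1.09e-05). The organoid values lie under the array medians, so the fold may be a lower bound, and since the cells were sorted through the Lgr5 locus the difference also checks the labels. The gene was at 9.29 in unsorted organoids kept in Sto medium. In bulk RNA fewer positive cells and less RNA per cell cannot be told apart.

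Ascl2, a stem cell transcription factor, was at 9.06 and 9.38 in the SCs against 3.98 and 4.81 (4.83, SE 0.34, adjusted p = 0.000205). Axin2, the scaffold that limits Wnt signalling and a classical Wnt target, was at 7.89 and 8.51 against 4.06 and 4.22 (16.7-fold, 4.06, SE 0.40, adjusted p = 0.00072). Cdca7 was at 10.05 and 10.38 against 6.31 and 6.67 (3.72, SE 0.28, adjusted p = 0.000213). The arrays of both groups stood well apart in all 3 genes. The other called members were the receptor Tnfrsf19 (4.51), the Dishevelled-binding Nkd1 (3.22), the ubiquitin ligases Rnf43 (2.63) and Znrf3 (1.86) that remove Wnt receptors, the surface protein Cd44 (2.51) and the ErbB inhibitor Lrig1 (2.35).

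Some well known members of the list were level or uncertain. The receptor Lgr4 was at 10.14 and 9.83 in the SCs and 9.99 and 10.05 in the organoids (-0.04, SE 0.27, adjusted p = 0.981). The growth regulators Myc (0.32, SE 0.42, adjusted p = 0.805) and Ccnd1 (-0.38, SE 0.60, adjusted p = 0.848) and the progenitor factor Sox9 (0.94, SE 0.33, adjusted p = 0.141) were not called either. The Wnt inhibitor Notum was at 6.17 and 7.30 in the SCs against 4.52 and 4.12 in the organoids (2.41, SE 0.82, adjusted p = 0.127). Leaving out Control Sto SCs 2 or either organoid array left 6 called members, and leaving out Control Sto SCs 1 left 9.

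Of 20 gastric pit cell genes, 9 were lower in Control Sto SCs, against 2.3% of all genes, 1 was higher and 10 were not called, with a median of -2.45. Muc5ac, the gel-forming mucin of the gastric surface, was at 4.60 and 4.45 in Control Sto SCs and at 12.28 and 12.03 in the organoids (198-fold, -7.63, SE 0.17, adjusted p = 4.57e-08). The gastrokine Gkn2 was at 3.98 and 4.48 against 12.40 and 12.45 (294-fold, -8.20, SE 0.30, adjusted p = 2.12e-06). Both were under the array medians in the SCs and among the brightest genes in the organoids, so these folds may be lower bounds. Gkn1, another gastrokine, was at 6.48 and 6.44 against 12.47 and 12.45 (-6.00, SE 0.65, adjusted p = 0.00109), and the trefoil peptide Tff1, co-secreted with Muc5ac, at 7.77 and 8.03 against 12.95 and 12.92 (-5.04, SE 1.04, adjusted p = 0.0195). The mucin-like Mucl3 (-6.59), the surface protein Psca (-4.75), the calpains Capn9 (-3.92) and Capn8 (-2.36) and Phgr1 (-3.32) completed the falls.

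Not every pit cell gene followed. Cathepsin E, Ctse, was at 12.15 and 12.07 against 12.85 and 13.03 (-0.83, SE 1.61, adjusted p = 0.889), and the membrane mucin Muc1 at 11.49 ± 0.24 against 12.06 ± 0.09 (SD, n = 2 each), a difference of -0.57 (SE 2.00, limma adjusted p = 0.95). Their standard errors exceed the spread within these 4 arrays, since all 7 groups share 1 estimate of it. Gkn3, whose product marks mucous cells of the gland rather than the pit, was the member that rose, at 12.75 and 12.31 against 10.58 and 10.55 (1.96, SE 0.51, adjusted p = 0.0493). Gkn1, Gkn2 and Gkn3 are next to each other on chromosome 6 in the RefSeq annotation, with no other protein-coding gene between them, so neighbouring gastrokines moved in opposite directions. Muc5ac, Tff1, Gkn1, Gkn2 and Muc1 served as markers to check the culture for pit cells, and of these 5 members all but Muc1 were called higher in the organoids in SI medium, while 10 of the 20 listed genes were not called. The falls numbered 12 without the library labelled SI organoids SI med 1, 7 without Sto organoids 2 and 6 when any other of the 4 arrays was left out. Gkn3 was not called without any 1 of the 4.

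**Figure D2:**
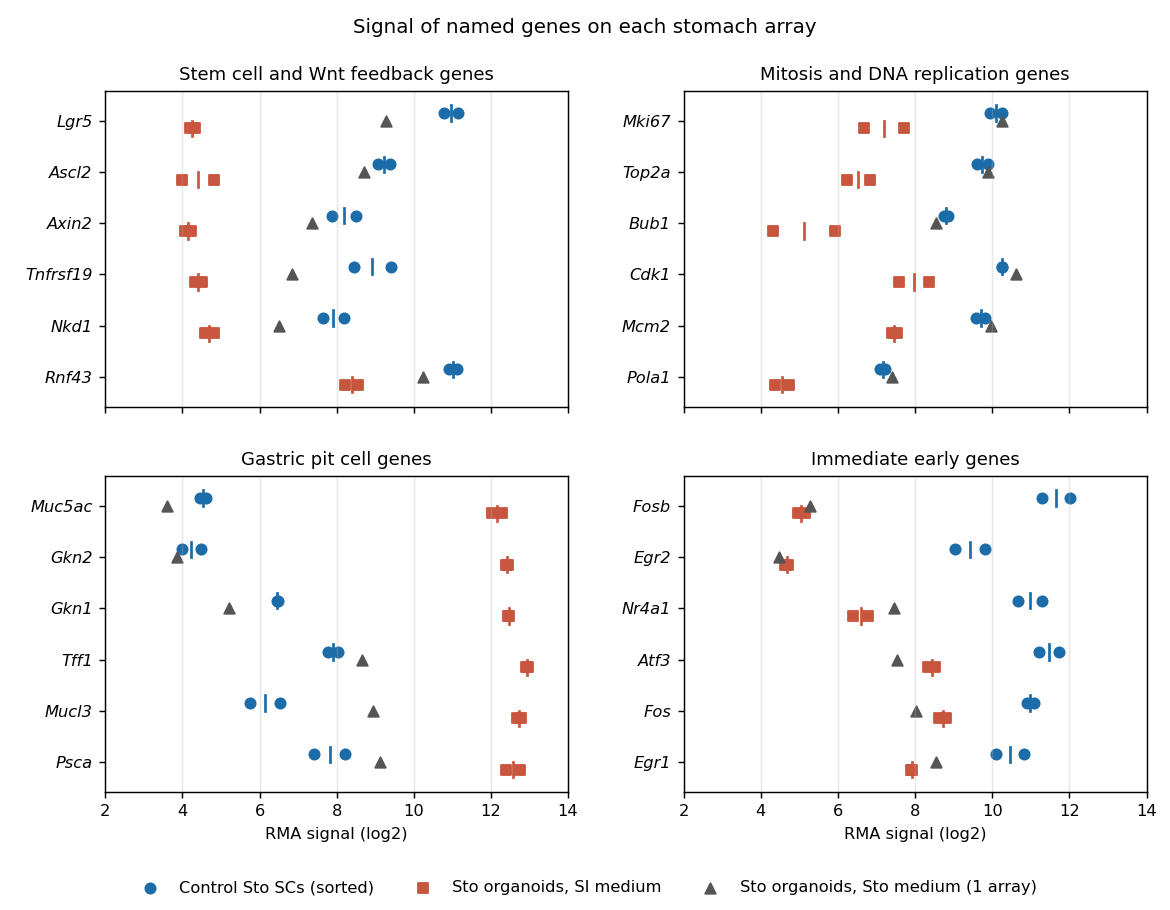
RMA signal (log2, x axis) of 24 genes in 4 panels on each stomach array, with circles for Control Sto SCs, squares for Sto organoids in SI medium, short bars for the mean of each group and a triangle for the single array of organoids in Sto medium. The triangle for Muc5ac (3.59) and Bub1 (8.53) lies by the circles, whereas that for Fosb (5.27) and Egr2 (4.46) lies by the squares.

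Of 14 gland mucous cell genes, 1 was higher (7.14%, near the 6.03% of all genes called) and 0 lower, with a median of 1.09. A4gnt, the enzyme that caps gland mucin glycans, was at 9.92 and 9.70 in Control Sto SCs against 4.87 and 5.47 in the organoids (4.64, SE 0.97, adjusted p = 0.0202). The gland mucin Muc6 was at 12.65 and 12.44 against 5.82 and 8.15 without passing (5.56, SE 1.98, adjusted p = 0.143), and the airway and gland protein Bpifb1 at 11.28 and 11.99 against 6.38 and 7.97 (4.46, SE 2.19, adjusted p = 0.306). Both genes separated the 4 arrays by wide margins. Without the library labelled SI organoids SI med 1, 5 of the 14 were called higher, and without any 1 of the 4 stomach arrays 0 were. The trefoil peptide Tff2 was high throughout, at 12.11 and 12.05 against 12.80 and 12.90 (-0.78, SE 1.31, adjusted p = 0.863).

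Of 13 chief cell genes, 2 were higher (15.4%, against 3.74% of all genes) and 0 lower, with a median of 0.19. The differences in this list ran from -2.91 to 5.74. Cblif, which encodes intrinsic factor for vitamin B12 uptake, was at 10.72 and 10.22 in the SCs and at 4.73 and 4.73 in the organoids (53.4-fold, 5.74, SE 0.63, adjusted p = 0.00119). It was at 5.98 in the Sto organoids Sto med array. The secretory cell factor Bhlha15 was at 8.72 and 7.88 against 5.30 and 4.61 (3.35, SE 0.41, adjusted p = 0.00217). The pepsinogen Pgc, at 9.71 and 9.84 against 6.05 and 7.27, was not called (3.11, SE 1.20, adjusted p = 0.179). Of 14 parietal cell genes, the creatine kinase Ckb (2.93) and the potassium channel Kcnq1 (1.29) were higher (14.3%, against 3.74% of all genes), while the proton pump subunit Atp4a was not called (1.15, SE 0.32, adjusted p = 0.0623). The parietal list had a median of -0.07, with differences from -1.49 to 2.93. Without any 1 of the 4 arrays 0 parietal genes were called, while Cblif and Bhlha15 were called each time. On the 4 arrays alone 3 chief cell genes were higher and 2 lower, and 3 parietal cell genes were higher and 1 lower.

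Of 25 enteroendocrine genes 0 were called by limma, 0 at an unadjusted p under 0.05 and 0 by the methods' t-test, beside 6.03% of all genes by limma, with a median of -0.02. The list medians on the 4 arrays lay between 4.25 and 4.36, under the array medians, so a change in these dim genes may be missed. The largest difference was that of Isl1, at 3.82 and 7.26 against 3.64 and 3.31 (2.07, SE 1.19, adjusted p = 0.405). The share called in the tuft cell list, 7.69%, was near the 6.03% of all genes. Of 13 tuft cell genes the kinase Dclk1 was higher (2.16), but not without any 1 of the 4 arrays. Of 23 transcription factors of gastric and foregut identity 1 was called (4.35%, near the share of all genes), the epithelial factor Ehf (1.12), and the differences ran from -1.72 (the pyloric factor Nkx6-3) to 2.09 (Irx5). The SC arrays differed by over 1 in 5 of these 23 genes. On the 4 arrays alone 2 were higher and 3 lower, and the call of Ehf was lost without Sto organoids 1 or either SC array. The foregut factor Sox2 was at 9.40 and 10.07 in the SCs and 9.54 and 9.78 in the organoids (0.07, SE 2.06, adjusted p = 0.997), Gata4 at 10.04 and 9.19 against 10.40 and 10.46 (-0.81, SE 0.38, adjusted p = 0.283), and the gastric tight junction gene Cldn18 at 12.13 ± 0.19 against 12.91 ± 0.04 (SD, n = 2 each), a difference of -0.77 (SE 2.13, limma adjusted p = 0.931). These 3 genes were well above the array medians on all 4 arrays. Cdx2 was low on all 4, at 5.08 and 4.67 against 4.72 and 5.57 (-0.27, SE 1.45, adjusted p = 0.972).

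**Figure D3:**
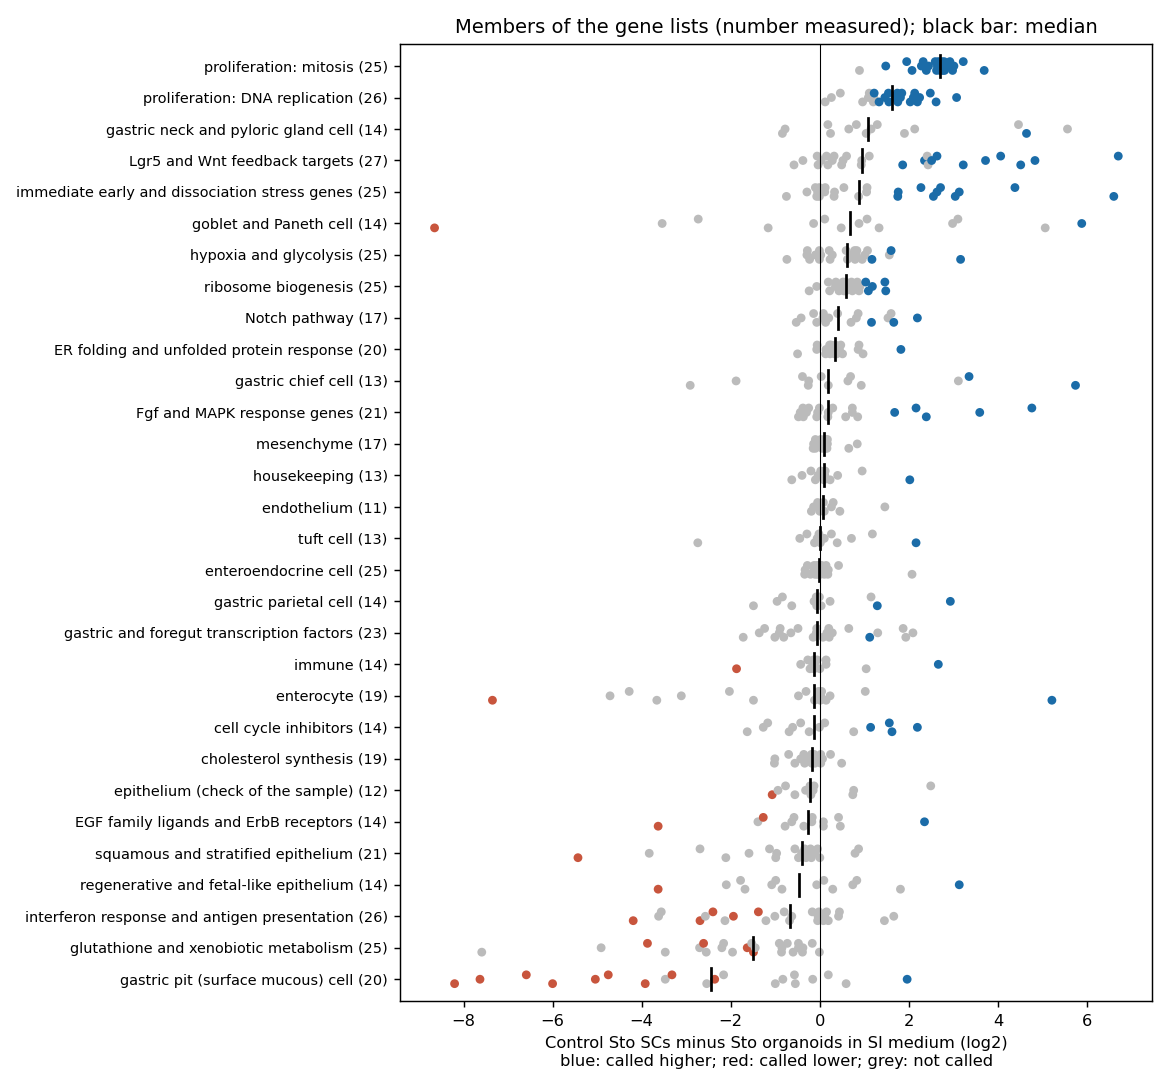
Difference between Control Sto SCs and Sto organoids in SI medium (log2, x axis) for the measured members of 30 gene lists (y axis), 1 point per gene, blue where called higher, red where called lower and grey where not called, with black bars for medians. Mitosis (median 2.70) lies at the top and gastric pit genes (median -2.45) at the bottom.

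The largest rises included genes outside these lists. Slc9a3, a sodium and proton exchanger, was at 11.50 and 11.23 in the SCs against 3.73 and 4.40 (157-fold, 7.30, SE 0.81, adjusted p = 0.00124). Secreted proteins of host defence and iron or copper handling followed, with Lbp, which binds bacterial lipopolysaccharide, at 11.77 and 11.43 against 4.62 and 4.68 (6.95, SE 0.99), and the siderophore-binding Lcn2 at 10.59 and 10.99 against 4.21 and 3.99 (6.69, SE 0.92). For these 3 genes the SCs were bright on both arrays and the organoids under the array medians, so the folds may be lower bounds and their order is uncertain. Ceruloplasmin, Cp (6.81), the protease inhibitor Serpina3n (6.45), Sbspon (6.43) and the protease Mmp7 (5.88) completed the leading genes with Lgr5, Fosb and Cblif. Mmp7 was called although its SC arrays differed, at 8.62 and 10.81.

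Among the largest falls the epithelial secreted protein Clca1 was at 4.35 and 4.34 in the SCs against 12.91 and 13.07 (401-fold, -8.65, SE 1.25, adjusted p = 0.00393), and Krt20, a keratin of mature gut epithelium, at 3.96 and 4.30 against 11.54 and 11.43 (-7.35, SE 1.17, adjusted p = 0.00634). The chitinase-like Chil4 was at 2.51 and 6.13 against 10.64 and 12.23 (-7.12, SE 1.73, adjusted p = 0.0386). Chil4 varied most between its replicates among these falls, and non-overlap of the groups was a condition for a gene to be listed here. The proton pump subunit Atp6v0d2 (-6.70) and the prostaglandin transporter Slco2a1 (-6.59) also fell.

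Shh, the hedgehog ligand of gastric epithelium, was at 3.60 and 3.96 in Control Sto SCs and at 9.59 and 9.37 in the organoids (52-fold, -5.70, SE 0.17, adjusted p = 3.73e-07). Other pathway members were looked at after this value was seen. The signal transducer Smo (2.98, SE 0.26, adjusted p = 0.000474) and the co-receptor Gas1 (1.49, SE 0.22, adjusted p = 0.00415) were higher in the SCs. The ligand Ihh (-1.64, SE 0.73, adjusted p = 0.255) and the target genes Ptch1 (0.61, SE 0.34, adjusted p = 0.396) and Gli1 (-0.07, SE 0.17, adjusted p = 0.915) were not called.

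The list of immediate early and dissociation stress genes had 10 of 25 members higher (40%, against 3.74% of all genes) and 0 lower, with a median of 0.87. Immediate early genes turn on within minutes of a stimulus and are known to respond to tissue dissociation. The list also holds heat shock genes. The AP-1 subunit Fosb was at 12.02 and 11.28 in the SCs against 5.13 and 4.97 (97-fold, 6.60, SE 0.59, adjusted p = 0.000527). The orphan receptor Nr4a1 was at 11.28 and 10.66 against 6.77 and 6.40 (4.38, SE 0.73, adjusted p = 0.0073), and Atf3, a stress-induced factor, at 11.73 and 11.21 against 8.33 and 8.52 (3.04, SE 0.40, adjusted p = 0.0027). The groups did not overlap in these 3 genes, as in 56.9% of all genes, and Control Sto SCs 1 was the higher SC array in each. Ccn1 (3.13), the small heat shock protein Hspb1 (2.71), Jun (2.63), Egr1 (2.55), Fos (2.27), Ier2 (1.76) and Klf2 (1.75) were called as well. Other heat shock genes were not, with Hspa8 at -0.10 (adjusted p = 0.826), Hsp90aa1 at 0.12 (adjusted p = 0.933), Dnajb1 at 0.32 (adjusted p = 0.593) and Hsph1 at -0.75 (adjusted p = 0.344). The count was 2 without Control Sto SCs 1 and 2 without Sto organoids 1, 3 without Sto organoids 2 and 6 without Control Sto SCs 2.

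A list of Fgf and MAPK response genes was looked at, since Sto medium holds Fgf10. Wnt, gastrin and sorting changed together with Fgf10, so a response to Fgf10 itself was not tested. Of 21 genes 5 were higher (23.8%, against 3.74% of all genes) and 0 lower, namely Egr2 (4.76), the Ets factors Etv5 (3.59) and Etv4 (1.68), the feedback inhibitor Spry1 (2.39) and the receptor Fgfr2 (2.16). Etv5 was at 9.45 and 9.91 in the SCs against 6.12 and 6.07 (SE 0.54, adjusted p = 0.00483), with 8.30 in Sto organoids Sto med. The feedback genes Dusp6 (0.58, adjusted p = 0.611), Spry2 (0.73, adjusted p = 0.36) and Spry4 (0.73, adjusted p = 0.516) were not called. Egr2 is also an immediate early gene. Leaving out Sto organoids 1 left 3 called. Of 14 EGF family genes the ligands Ereg (-3.63) and Tgfa (-1.27) were lower, and the inhibitor Lrig1 was higher (21.4% called, against 6.03% of all genes). Of the EGF family 1 gene was called lower when any 1 of the 4 arrays was left out. The Notch pathway had 3 of 17 members higher (17.6%, against 3.74% of all genes) and 0 lower, the receptor Notch1 (1.66), its glycosyltransferase Lfng (2.19) and Hes6 (1.16), while the target Hes1 was not called (0.82, SE 0.28, adjusted p = 0.135). The Notch count was 0 without Sto organoids 1, 1 without Control Sto SCs 2 and 2 without either other array.

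Interferon-induced genes were lower in 5 of 26 members (19.2%, against 2.3% of all genes) and higher in 0, with a median of -0.66. The guanylate-binding Gbp2 was at 3.82 and 3.74 in the SCs against 6.70 and 6.25 (-2.69, SE 0.26, adjusted p = 0.000652), and Oasl2 at 5.95 and 8.64 against 11.50 and 11.47 (-4.19, SE 1.04, adjusted p = 0.0421). Gbp3 (-1.94), the antiviral GTPase Mx1 (-2.40) and the ubiquitin-like Isg15 (-1.38) were the other falls. The SC arrays differed by over 1 in 6 of the 26 genes, and the regulator Irf7, at 5.50 and 8.11 against 10.43 and 10.30, was not called (-3.56, SE 1.02, adjusted p = 0.0714). The falls numbered 1 or 2 without either organoid array, 2 without Control Sto SCs 1 and 4 without Control Sto SCs 2.

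Detoxification genes had 4 of 25 members lower (16%, against 2.3% of all genes) and 0 higher, with a median of -1.49. The quinone reductase Nqo1 (-2.61), the retinol and ethanol dehydrogenase Adh7 (-3.87), the glutathione transferase Gsta4 (-1.63) and Gclc (-1.49), the catalytic subunit for glutathione synthesis, fell. The cytochrome Cyp2c65, at 3.46 and 2.95 in the SCs against 10.46 and 11.13, was not called (-7.59, SE 2.09, adjusted p = 0.0614). Without the library labelled SI organoids SI med 1, 12 members were lower, and 2 were lower without any 1 of the 4 arrays. Among hypoxia and glycolysis genes 3 of 25 were higher (12%, against 3.74% of all genes), the vasodilator peptide Adm (3.16), the mitophagy receptor Bnip3 (1.60) and the kinase Pdk1 (1.17). That count was 1 without Sto organoids 1 or Control Sto SCs 2, 2 without either other array and 6 on the 4 arrays alone. Cholesterol synthesis had 0 of 19 genes called by limma (3 at an unadjusted p under 0.05, and 2 lower by the methods' t-test), with a median of -0.18. In the unfolded protein response list 1 of 20 was higher (5%), the phosphatase subunit Ppp1r15a (1.82). This share and that of the squamous list (4.76%) were near the 6.03% of all genes called. In the squamous list the cornified envelope gene Ivl was lower (-5.43), 1 of 21, or 4 without the library labelled SI organoids SI med 1 and 0 to 2 without 1 of the 4 arrays.

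Lists of other cell types were used as a check of both samples. Beside the counts below stands the share over all genes, 3.74% called higher and 2.3% lower. Of 17 mesenchyme and 11 endothelium genes 0 were called by limma (0 and 2 at an unadjusted p under 0.05, 0 and 1 by the methods' t-test), and the list medians on the 4 arrays lay between 4.15 and 4.32 and between 3.76 and 4.05, under the array medians. Of 14 immune genes the lysosomal Cd68 was higher (2.66) and Laptm5 lower (-1.87), with list medians between 3.74 and 3.89. Enterocyte and goblet or Paneth cell lists each had 1 gene higher (the aminopeptidase Anpep at 5.21 and Mmp7) and 1 lower (Krt20 and Clca1). Without the library labelled SI organoids SI med 1 the enterocyte list had 1 higher and 6 lower, and the goblet and Paneth list 3 higher and 3 lower. The epithelial list stood between 11.15 and 11.57 on the 4 arrays, with Epcam at 11.44 and 11.66 against 10.83 and 10.76 and Cdh1 at 11.70 and 11.58 against 11.99 and 11.93, and 1 of 12 members was called (Krt19, -1.07). The 14 regenerative epithelium genes had 1 higher (Ccn1) and 1 lower (Ereg). Actb (-0.10) and Gapdh (-0.04) were level, and the transferrin receptor Tfrc (2.02) was the 1 housekeeping gene of 13 called. Of 4 sex-linked genes 0 were called by limma, at an unadjusted p under 0.05 or by the methods' t-test, and all 4 arrays had the high Xist of female cells (11.31 to 11.85). The Sto organoids Sto med array was male, with Xist at 3.23.

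Unsorted organoids kept in Sto medium share the medium of the sorted cells and the lack of sorting of the others. With 1 array this is a description without a test. The array may also differ from the sorted cells in the origin of the culture. Each called gene was placed on a scale from 0 at the mean of Control Sto SCs to 1 at the mean of Sto organoids SI med. Of the 703 genes higher in the SCs, 608 (86.5%) lay nearer to the SCs on this array and 95 (13.5%) nearer to the organoids, with a median position of 0.0817. Of the 432 lower genes 392 (90.7%) lay nearer to the SCs and 40 (9.26%) nearer to the organoids, with a median of 0.131. All 24 called mitosis genes, 18 replication genes and 10 Wnt genes were on the side of the SCs, as were 9 of 10 called pit cell genes. Lgr5 at 9.29, Muc5ac at 3.59 and Gkn2 at 3.87 are examples.

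The immediate early and dissociation stress list went the other way, and 9 of its 10 called genes, all but Hspb1, lay nearer to the organoids in SI medium. Fosb was at 5.27, Nr4a1 at 7.46, Atf3 at 7.52 and Fos at 8.01 on the Sto organoids Sto med array. Of the Fgf response genes Egr2 was at 4.46, at the organoid level, and Fgfr2 at 8.51 was also nearer to the organoids. Outside those lists Serpina3n (4.17), Cblif (5.98), the homeobox factor Prox1 (4.53) and the growth factor Bmp7 (7.18) were at or near the level of the organoids in SI medium. Prox1 and Bmp7, which were picked after their values were seen, stood at 8.98 and 8.65 and at 9.77 and 9.76 in the SCs. In all 44 of the higher genes and 5 of the lower genes lay at a position over 0.75.

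**Figure D4:**
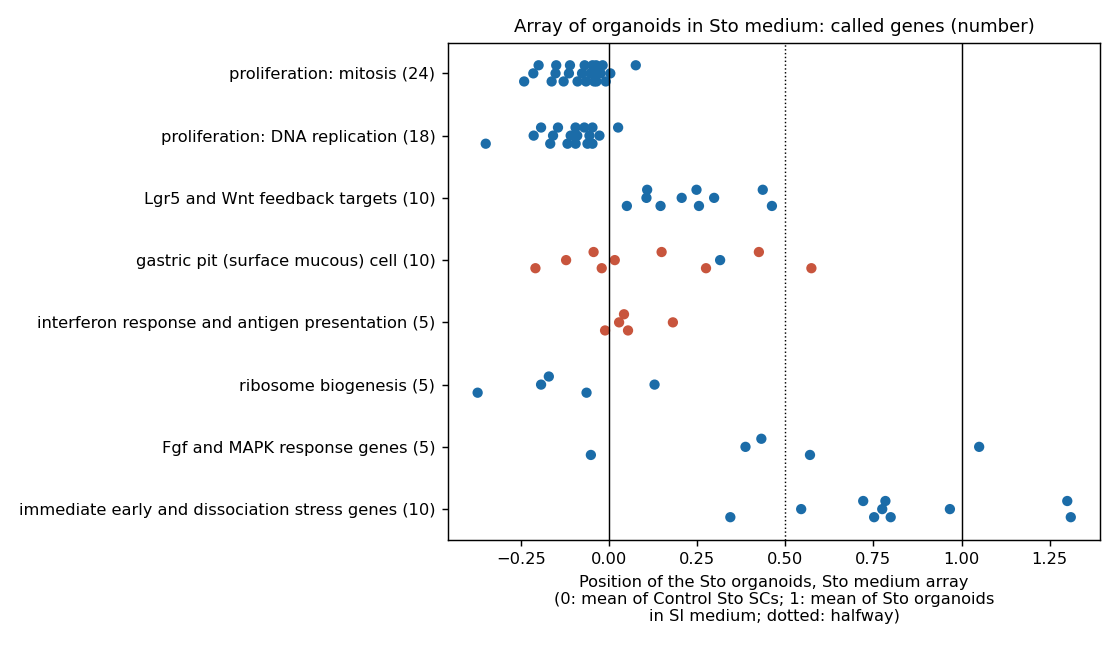
Position of the single array of stomach organoids in Sto medium between Control Sto SCs (0) and Sto organoids in SI medium (1) on the x axis, for the called genes of 8 lists on the y axis, blue where higher and red where lower in SCs. All 24 mitosis genes lie nearer to 0, while 9 of 10 immediate early and dissociation stress genes lie nearer to 1.

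The contrast of the same labels in the small intestine, Control SI SCs (n = 3) against SI organoids SI med (n = 3), was set beside that of the stomach. Control SI SCs 1 and 3 were male, with Xist at 3.35 and 3.77. Control SI SCs 2 (11.71) and the SI organoids (10.83 to 11.13) had the high Xist of female cells, so sex was not balanced in this contrast. Per the paper, SI medium sustains intestinal organoids but lets stomach organoids differentiate. Organ and the role of the medium therefore cannot be told apart. Lgr5 was at 9.49, 9.90 and 10.28 in SI organoids SI med, against 4.20 and 4.32 in Sto organoids SI med. The test of the difference between both contrasts called 159 genes (0.845%), 90 higher (0.478%) and 69 lower (0.367%) in the stomach. Without the library labelled SI organoids SI med 1 it called 854 (4.54%). It called 45 without Sto organoids 1, 19 or 34 without Control Sto SCs 1 or 2, 39 or 90 without Control SI SCs 1 or 3 and 95 without SI organoids 2. The difference for Lgr5 was 1.32 in the intestine against 6.70 in the stomach (5.37 between organs, SE 0.41, adjusted p = 0.000821), and that for Ascl2 was 1.23 against 4.83 (3.60, SE 0.44, adjusted p = 0.0121). Top2a differed by 0.36 in the intestine against 3.22 (2.86, SE 0.39, adjusted p = 0.0165). In the mitosis list 3 of 25 genes differed between organs, or 15 without the library labelled SI organoids SI med 1.

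Of 20 pit cell genes 3 differed between the organs in the same test, or 8 without the library labelled SI organoids SI med 1. The 3 were Muc5ac, at -0.08 in the intestine (-7.55 between organs, SE 0.22, adjusted p = 5.47e-07), Gkn2, at -0.51 (-7.68, SE 0.39, adjusted p = 4.05e-05), and Gkn1, at -0.80 (-5.19, SE 0.84, adjusted p = 0.0279). Without that library the intestinal differences were 0.02 for Muc5ac, -0.21 for Gkn2 and -0.06 for Gkn1. Shh, which is in no list, was at -0.08 (-5.62, SE 0.22, adjusted p = 4.58e-06). Muc5ac, Gkn2 and Shh were under the array medians in both intestinal groups, so their values between organs mainly restate the stomach difference. Fosb differed by 4.90 in the intestine and 6.60 in the stomach, Atf3 by 3.48 and 3.04, and Adm by 3.10 and 3.16. Of the 25 immediate early and dissociation stress genes 0 were called by limma for a difference between organs (1 at an unadjusted p under 0.05), and 1 was called without the library labelled SI organoids SI med 1. A gene that misses this test is not shown to behave alike in both organs.

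**Figure D5:**
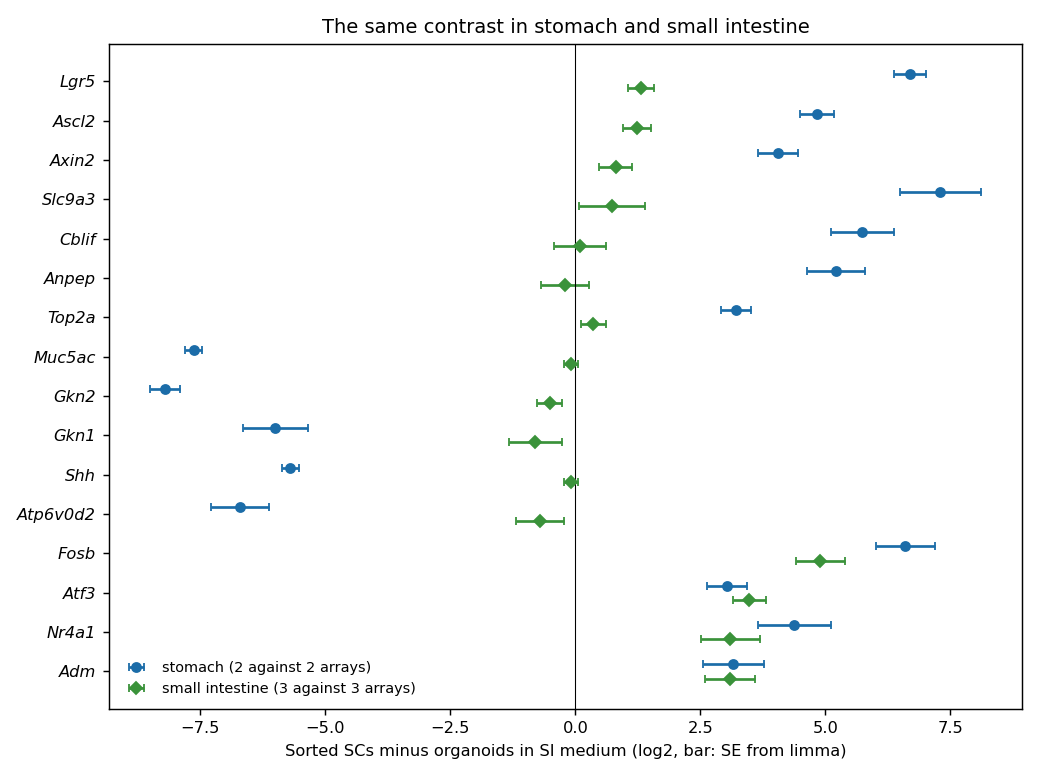
Difference between sorted SCs and organoids in SI medium (log2, x axis; bars, SE from limma) for 16 genes, with stomach as circles (2 against 2 arrays) and small intestine as diamonds (3 against 3). Lgr5 lies at 6.70 and 1.32 and Muc5ac at -7.63 and -0.08, while Atf3 (3.04 and 3.48) and Adm (3.16 and 3.10) nearly coincide.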

How the data were processed

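RNA from 14 samples had been hybridised to Affymetrix Mouse Gene ST 1.1 arrays, 1 per sample. Per the study's methods the authors summarised the scans with RMA, and they deposited log2 values for 35556 probe sets, which were used without further normalisation. RMA keeps silent genes above 0, which compresses folds of weak genes. The 2 arrays Control SI SCs 3 and SI organoids SI med 3 held the log2 of values rounded to 1 decimal on 100% of probe sets, so they had been exported differently. Array precision is limited by the number of arrays.

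Groups followed the sample titles. The platform annotation listed genes for 23099 probe sets, 21218 of them with 1 symbol, 1881 with several and 12457 probe sets with none, and only those with 1 symbol were used. Symbols of 21185 were updated through a RefSeq table (GRCm38.p6). For 1386 genes with more than 1 probe set, the brightest on average across the arrays stood for the gene, giving 18820 genes. Group means of all 14 arrays (7 groups) were fitted in R 4.3.3 with limma 3.58.1 (lmFit, eBayes; 9.37 prior and residual degrees of freedom), 2-sided, with Benjamini-Hochberg adjustment. The methods' t-test was run on the 4 arrays as an alternative, with a fold of at least 2 at an unadjusted p under 0.05 and after adjustment. The fit was tested on simulated data. The 31 gene lists had 598 members, of which 553 were measured. Promoters were the 250 bases before the first listed start. Figures used matplotlib 3.10.9.

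Genes named were Lgr5, Axin2, Cdx2 and Cldn18, the 10 largest called rises and the 10 largest falls with arrays that did not overlap, up to 4 called members of each list in each direction with the smallest adjusted p together with any other member given by value, and the 5 largest differences between organs in each direction. The comparison, lists and rule were chosen with earlier results of these data known, so they give no independent support. Titles share replicate numbers, but nothing says that a number marks an animal or a day, and no block was used.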

Additional observations from a re-analysis of the deposited data

Results flagged for a closer look

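The contrast between sorted SCs and organoids in SI medium differed between stomach and small intestine in 159 genes, by the test of that difference. The genes below were called in the stomach contrast and called again in the test between the organs (29 of 145 named genes). Most list members, and some genes given by value such as Notum and Prox1, were not among the 145. Each value is the stomach difference minus the intestinal difference on the log2 scale. All 29 were also called without the library labelled SI organoids SI med 1. No explanation was tested. Organ cannot be told apart from the role of SI medium, which sustains intestinal organoids and lets stomach organoids differentiate.

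The stem cell and Wnt genes were Lgr5 (5.37), Ascl2 (3.60), Axin2 (3.25) and Cdca7 (2.59). Division genes were Top2a (2.86), Kif11 (2.49), Uhrf1 (2.41), Ccna2 (2.38), Pola1 (2.01) and Mcm6 (1.65). In the intestine alone the difference was 1.32 for Lgr5 and 0.60 for Pola1, against 6.70 and 2.61 in the stomach. Higher in the stomach contrast were also the exchanger Slc9a3 (6.56), intrinsic factor Cblif (5.65), the aminopeptidase Anpep (5.42), the secretory factor Bhlha15 (4.52), the tuft cell kinase Dclk1 (3.68) and the hedgehog transducer Smo (2.38). Dclk1 stood at 2.16 in the stomach and -1.52 in the intestine, and Bhlha15 at 3.35 and -1.18.

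Lower in the stomach contrast were the pit cell products Gkn2 (-7.68), Muc5ac (-7.55) and Gkn1 (-5.19), the proton pump subunit Atp6v0d2 (-6.00), the ligand Shh (-5.62), Teddm3 (-5.40) and the transporter Slco2a1 (-5.32). The EGF family ligand Ereg (-3.54), the interferon-induced Gbp2 (-2.94) and Gbp3 (-2.15), the quinone reductase Nqo1 (-2.53) and the microRNA genes Mir200a (-2.12) and Mir141 (-2.04) followed. For Muc5ac (-0.08), Shh (-0.08), Ereg (-0.09), Nqo1 (-0.08) and Teddm3 (0.03) the intestinal difference lay within 0.10 of 0. All but Nqo1 were under the array medians in both intestinal groups. Muc5ac had a mean of 3.60 in Control SI SCs and was at 3.88, 3.47 and 3.69 in SI organoids. For such dim genes the value between organs mainly restates the stomach difference. Nqo1 had a mean of 7.98, against 7.82, 8.57 and 7.79.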

How the results depend on the processing

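The count of 1135 genes in the stomach contrast was 1825 on the 4 arrays alone, 1738 without the library named SI organoids SI med 1, while 531 passed at an adjusted p under 0.01 and 0 did by the methods' t-test after Benjamini-Hochberg adjustment (1510 unadjusted). It was 1858 on 11 arrays, an alternative chosen after seeing the data that also left out the 2 arrays exported differently. Leaving out 1 array gave 403 to 628. Quantile normalisation, centring, averaging probe sets, a filter on dim genes, 12 arrays, a trended robust prior and no fold threshold gave 1100 to 1379. The 159 genes that differed between organs became 324 with quantile normalisation, 99 on the arrays of the groups compared, 56 without the 2 arrays exported differently, 616 on 11 arrays and 22 at an adjusted p under 0.01. Leaving out 1 array gave 19 to 854, and 854 is the count without the library labelled SI organoids SI med 1. Other alternatives gave 154 to 216. The causes of these shifts were not tested. With a replicate block the counts were 1857 and 92. The arrays with number 1 deviated from their group means with a correlation of -0.0297 over 18820 genes, so the numbers are not shown to pair the samples. Of 2609 values of the 145 named genes under the alternatives, 2221 kept the side of the threshold, 338 no longer passed and 50 newly passed. A turn of direction in a gene called in either setting occurred in 0. Turns of genes called in neither were counted as kept. Of 220 values of the 10 named differences between organs, 192 kept direction and side of the threshold and 28 no longer passed. The methods' t-test was not run for the difference between organs, for which it has no form. Without an array its group is 1 sample, assumed to vary like the others. With 2 arrays a group, misses are not evidence of equality.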

Other observations

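The 2 arrays of Control Sto SCs differed by over 1 on the log2 scale in 464 genes, and 336 of these were higher on Control Sto SCs 2 and 128 on Control Sto SCs 1. The phospholipase Pla2g2a was at 5.99 on Control Sto SCs 1 and 11.57 on Control Sto SCs 2, and the lysozyme Lyz1 at 5.60 and 10.76. The lipoxygenases Alox12e (4.27 and 8.79) and Alox15 (5.08 and 9.47) and the homeobox genes Irx5 (3.78 and 8.21), Irx2 (4.77 and 8.03) and Irx3 (4.95 and 7.74) showed the same order. On the Sto organoids Sto med array Pla2g2a (10.86), Lyz1 (9.89), Alox12e (7.91), Irx5 (8.16) and Irx3 (8.47) were near Control Sto SCs 2. The peroxidasin Pxdn (3.50 and 8.01) and the homeobox gene Isl1 (3.82 and 7.26) also followed the order, but stood at 3.62 and 3.43 on that array, near Control Sto SCs 1. Of these 9 genes 0 were called between SCs and organoids by limma, with adjusted p between 0.0645 and 0.612 and 2 at an unadjusted p under 0.05 (Pla2g2a and Alox15). They were chosen for the gap between the arrays, so it is a description. Whether the 2 arrays came from different animals is not stated.

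Between the 2 arrays of Sto organoids SI med the brush border phosphatase Alpi was at 6.07 and 10.51, and the retinol carrier Rbp2 at 6.47 and 9.21, against 3.49 and 3.67 and against 4.34 and 4.02 in Control Sto SCs. Neither passed limma's test (adjusted p = 0.313 and 0.376).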
